A study of Mus musculus with 8 samples.

Results

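Keratin associated protein genes (Krtap) were followed in wound skin of mice that received PBS or the composite Z1C2Z. A gene was a member when its symbol in the count table began with Krtap, which gave 56 of 18540 genes. Keratin associated proteins form the matrix around the hair keratin filaments of the hair shaft, and disulfide bonds between cysteines tie matrix and filaments together. The genes are small and mostly have a single exon. They lie in clusters and are used in the matrix, cortex and cuticle cells of a growing hair follicle, so that a resting follicle makes little of their RNA. Families are told apart by number and fall into cysteine-rich proteins (high-sulfur, and ultra-high-sulfur where cysteine is most abundant) and proteins rich in glycine and tyrosine (high-glycine-tyrosine). By family number, 17 members were counted as high-sulfur (families 1, 2, 3, 11, 13 to 16, 24, 26 and 27), 20 as ultra-high-sulfur (4, 5, 9, 10, 12 and 17) and 15 as high-glycine-tyrosine (6, 7, 8 and 19 to 22), and 4 members of families 28, 29 and 31 were left without a class.

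RNA of 4 control wounds, numbered 1, 2, 3 and 5, and of 4 wounds treated for 15 days with Z1C2Z, numbered 1, 2, 4 and 5, was sequenced, and values are listed in that order throughout. The deposited sample titles separate the groups without naming the treatment, which the study's methods give as ZCZ, and the name Z1C2Z was taken from the equally numbered samples in its figures. Z1C2Z is ZnO2 and CeO2 in a ZIF-8 framework, in the version with more CeO2 per ZnO2, and controls received PBS. The study wounded db/db mice at 10 weeks of age, a model of diabetes through loss of the leptin receptor, and C57BL mice at 6 weeks, with 2 wounds on each back, and the sources used here do not tell which mice gave the sequenced tissue or which samples shared a mouse. The p-values therefore measure the spread between these samples, which may include wounds of 1 animal. The table held from 28856790 to 38974888 counts in a sample. Levels are given as CPM (counts scaled by 1e6 over the TMM-normalised library size) and as CPM per kilobase of exon where genes are compared with each other.

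The 300-base RefSeq promoter table (GRCm38.p6) held 51 of the 56 members. The 100 bases before the annotated start are printed for 5 members that stand for the classes and gene clusters described here, 5′ to 3′ on the strand of the gene, with the letters TATAAA, the core of a TATA box, in capitals. Krtap1-5 (high-sulfur, chr11:99581017-99581116, minus strand), Krtap4-1 (ultra-high-sulfur, chr11:99628240-99628339, minus strand), Krtap8-1 (high-glycine-tyrosine, chr16:89487953-89488052, minus strand) and Krtap16-3 (chr16:88962874-88962973, minus strand) held it close to the start, whereas Krtap19-1 (high-glycine-tyrosine, chr16:88869411-88869510, minus strand) held the variant tatataa farther upstream.
Krtap1-5: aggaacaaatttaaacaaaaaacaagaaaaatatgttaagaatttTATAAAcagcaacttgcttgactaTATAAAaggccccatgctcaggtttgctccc
Krtap4-1: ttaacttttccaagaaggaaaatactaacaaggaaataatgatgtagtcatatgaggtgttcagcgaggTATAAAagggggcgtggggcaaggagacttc
Krtap8-1: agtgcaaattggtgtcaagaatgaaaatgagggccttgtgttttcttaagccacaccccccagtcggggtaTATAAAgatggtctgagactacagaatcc
Krtap16-3: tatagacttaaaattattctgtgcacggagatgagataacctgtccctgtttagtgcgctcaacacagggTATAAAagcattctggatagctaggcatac
Krtap19-1: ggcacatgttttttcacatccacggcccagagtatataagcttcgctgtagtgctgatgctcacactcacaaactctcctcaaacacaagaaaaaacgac

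TATAAA was found on either strand of the 250 bases before the start in 41 of 51 members (80.4%) and in 12.4% of all 32851 promoters of the table. On the strand of the gene in the last 50 bases, it was found in 34 members (66.7%) and in 2.63% of all promoters. TATATAA, searched after the sequences were seen and overlapping TATAAA where an A follows, raised the number of members with one or the other in the last 100 bases to 49 (96.1%), against 4.46% of all promoters, and the 2 without were Krtap5-3 and Krtap5-4. CTTTGA, the core that LEF1 binds, was found on either strand in 12 members (23.5%) and in 13.8% of all promoters, with 8 of 16 high-sulfur, 1 of 17 ultra-high-sulfur and 3 of 14 high-glycine-tyrosine members. ACGC, the core of the FOXN1 motif, was found in 11 members (21.6%) and in 49.8% of all promoters. These matches describe letters in a window and are not binding sites.

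Krtap RNA was far more abundant in 3 of the 4 Z1C2Z samples than in any control. The 56 genes together reached 26.8, 82.0, 320 and 43.9 CPM in the controls. In the treated samples they reached 1750, 8860, 8530 and 319 CPM. Z1C2Z-2 and Z1C2Z-4 stood highest, Z1C2Z-1 lay between them and all controls, and Z1C2Z-5 lay at the level of control-3, so that the groups overlapped by that pair. Controls averaged 118 CPM ± 137 (SD, n = 4) and treated samples 4860 CPM ± 4460 (SD, n = 4), which makes a ratio of 41.2. In bulk tissue, fewer hair-forming cells and less RNA per cell cannot be told apart.

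**Figure D1:**
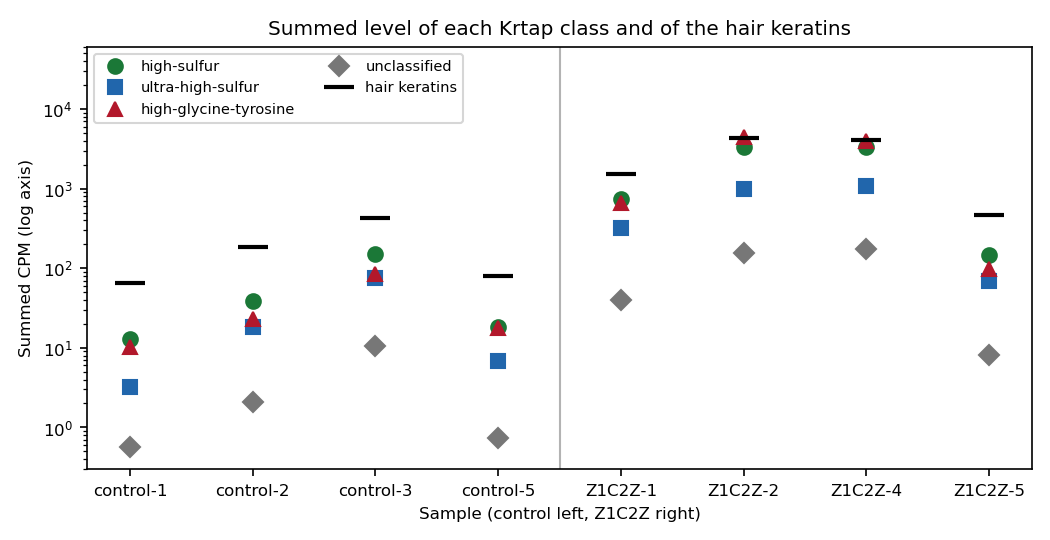
Summed CPM (log axis) of the members of each Krtap class and of 16 hair keratin genes in each of the 8 samples, 1 symbol per class and sample, controls on the left and Z1C2Z samples on the right. All classes were highest in Z1C2Z-2 and Z1C2Z-4, and control-3 (320 CPM over all members) and Z1C2Z-5 (319 CPM) lay side by side.

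Of the 56 members, 50 had enough counts for edgeR's quasi-likelihood test, and 45 of these were called higher in Z1C2Z at an adjusted p under 0.05 with an absolute log2 fold change over 1, against 2.15% of all 15147 tested genes called higher. None was called lower. The filter asks for enough counts in as many samples as a group holds, so a member could pass on the treated samples alone. With at least 10 counts asked of every sample, edgeR called 23 of 23 members higher, and 234 of all 14290 tested genes higher. The log2 fold changes of the 50 ran from 2.75 (Krtap4-13) to 8.08 (Krtap19-1) with a median of 4.68, where the median over all tested genes was 0.009, and 23 of the 50 largest log2 fold changes of all genes belonged to Krtap genes. The adjusted p of the 50 lay between 0.0299 and 0.103 in edgeR, and the smallest of any gene was 0.0232. In 23 of the 50, every Z1C2Z sample lay above every control, against 8.45% of all tested genes. These 23 had an exact two-sided permutation p of 0.0286, the smallest that 70 arrangements allow, and the other 27 had 0.0571, both unadjusted. The first value follows from the separation of the groups and adds no support to it.

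The order of the samples was shared by the 50 tested members. The top 2 of 8 samples were Z1C2Z-2 and Z1C2Z-4 in 50 of 50, Z1C2Z-1 came next in 50 of 50, and control-3 was the highest control in 50 of 50. Z1C2Z-5 was the lowest treated sample in 50 of 50, and control-3 equalled or exceeded it in 27. Because all members followed the same samples, they are not independent observations of the treatment. The number of calls depended on which sample was left out. With control-2 or control-5 left out, or any treated sample other than Z1C2Z-5, edgeR called 0 members (smallest adjusted p between 0.0604 and 0.0888, with 50 of 50 or 54 of 54 tested members at an unadjusted p under 0.05). Over all genes, the same fits called 8 higher and 76 lower without control-2, and 0 in either direction in each other case. With all samples, 326 were called higher and 189 lower. The loss of higher calls was therefore not particular to the members. Between 3100 and 4208 of all tested genes were at an unadjusted p under 0.05 in these fits. Without control-1, 26 members were called, and without control-3 or Z1C2Z-5, 51 and 53, where 282, 354 and 463 of all genes were called higher. Among single samples, leaving out control-3 changed the size of the difference most, and made it larger. The median log2 fold change was then 6.26 over 54 tested members in place of 4.68 over 50. The log2 ratio of the mean Krtap sums was 6.58 in place of 5.36. Without both Z1C2Z-2 and Z1C2Z-4, a choice made after the data were seen, the median fell to 2.92.

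**Figure D2:**
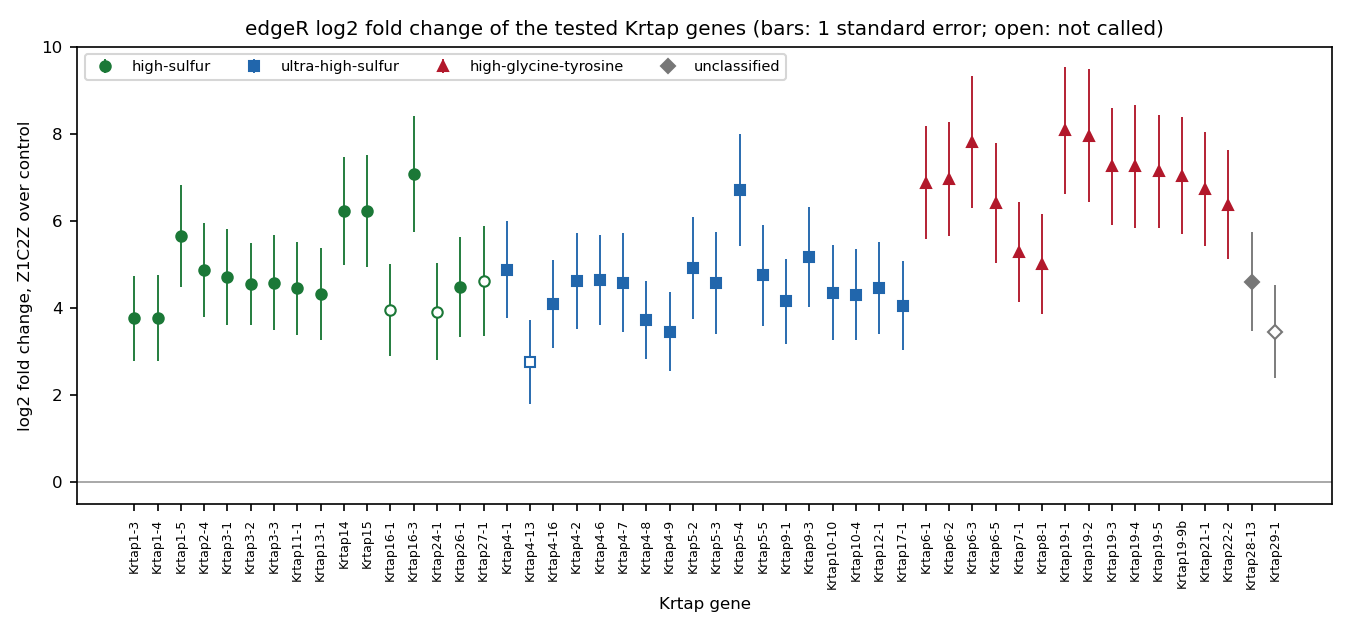
edgeR log2 fold change (Z1C2Z over control) of the 50 tested Krtap genes, ordered by class and family, with 1 standard error as bars. Filled symbols were called and the 5 open symbols were not. The high-glycine-tyrosine genes lay between 5.01 and 8.08, and most of the sulfur-rich genes lay below them.

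The high-glycine-tyrosine genes showed the largest differences. All 14 that were tested were called (edgeR adjusted p between 0.0299 and 0.037), their median log2 fold change was 7.01, and in 12 of them the groups did not overlap. In a fit blocked by sample number, control-3 and Z1C2Z-4 have no partner in the other group and add nothing to the group difference. There the class medians were closer, at 5.96 for high-glycine-tyrosine, 5.17 for high-sulfur and 5.20 for ultra-high-sulfur genes, in place of 7.01, 4.57 and 4.52. The effect of blocking cannot be told from that of losing these samples. The high-glycine-tyrosine genes summed to 10.2, 22.9, 84.7 and 17.7 CPM in the controls and 657, 4400, 3930 and 97.0 CPM in the Z1C2Z samples. Even the lowest treated sample lay above the highest control. The ratio of the group means was 67.0, against 30.9 for the 37 genes of both sulfur-rich classes, whose sums of 225 CPM in control-3 and 214 CPM in Z1C2Z-5 overlapped.

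Krtap19 was the family with the largest rise. All 6 members were called, none had overlapping groups, and the ratio of the family's mean sums was 167. The family summed to 2.84, 3.00, 7.35 and 2.23 CPM in the controls and to 141, 1230, 1190 and 14.4 CPM in the treated samples. Every treated sample lay above every control, and control-3 was again the highest control. Krtap19-1 (Entrez 170657) stood at 0.249, 0.25, 0.358 and 0.31 CPM in the controls and at 16, 155, 149 and 1.36 CPM in the treated samples. Krtap19-2 had 0.0282 to 0.909 CPM in the controls and 1.89 to 221 CPM in the treated samples, and differed by 7.96 on the log2 scale (standard error 1.53, edgeR adjusted p = 0.0303). Krtap19-3 (log2 fold change 7.26), Krtap19-4 (7.26) and Krtap19-5 (7.14) had edgeR adjusted p values of 0.0300, 0.0303 and 0.0299. Krtap19-5 was the most abundant of the family over all samples, with 324 CPM per kilobase in the Z1C2Z group and 2.26 in the controls.

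The other high-glycine-tyrosine families followed. The 4 Krtap6 genes had log2 fold changes from 6.42 to 7.82 and a ratio of mean sums of 111. Krtap6-3 had 0.0355, 0.167, 0.193 and 0.169 CPM in the controls and 6.71, 66.9, 60.5 and 0.499 CPM in the treated samples. The lowest treated sample of Krtap6-3 was above all controls, but reached no more than 0.499 CPM. Krtap6-1 had a log2 fold change of 6.88, Krtap21-1 of 6.73 and Krtap22-2 of 6.37, each with an edgeR adjusted p of 0.0303. Krtap7-1 and Krtap8-1, the sole members of their families in the table, were the lowest of the class at 5.29 and 5.01. They were also the highest in level, since Krtap8-1 reached 773 and Krtap7-1 511 CPM per kilobase in the Z1C2Z group, ahead of all other members, against 23.9 and 13.0 in the controls. In Krtap8-1 the controls measured 2.98, 9.07, 37.2 and 5.61 CPM and the treated samples 177, 797, 768 and 34.2 CPM, so control-3 exceeded Z1C2Z-5. Krtap20-2, the member of this class that was not tested, had 1 count in all controls together and 0, 22, 13 and 0 counts in the treated samples.

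Among the 17 high-sulfur genes, 16 were tested and 13 were called, with a median log2 fold change of 4.57 and no overlap of the groups in 4. Krtap1-5 was the most abundant Krtap1 gene and rose by 5.65 on the log2 scale (standard error 1.17, edgeR adjusted p = 0.0315). It had 2.45, 5.11, 17.1 and 3.38 CPM in the controls and 117, 630, 651 and 18.0 CPM in the treated samples. The lowest treated and the highest control sample of Krtap1-5 were almost equal. Krtap1-3, of the same family, rose by 3.77 (edgeR adjusted p = 0.0484). Krtap3-3 (4.58), Krtap2-4 (4.88), Krtap11-1 (4.45), Krtap13-1 (4.32) and Krtap26-1 (4.48) were called with edgeR adjusted p values of 0.0400, 0.0348, 0.0411, 0.0428 and 0.0476. Krtap24-1 (3.92), Krtap27-1 (4.62) and Krtap16-1 (3.95, named after its values were seen) missed the threshold with edgeR adjusted p values of 0.0609, 0.0553 and 0.0521. Krtap13 had 0 counts in every control and no more than 1 in any treated sample and was not tested.

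Krtap14, Krtap15 and Krtap16-3 stood apart from the other genes counted as high-sulfur. Krtap15 had 2.03, 2.61, 15.5 and 2.20 CPM in the controls and 128, 784, 761 and 18.3 CPM in the treated samples, and its 402 CPM per kilobase in the Z1C2Z group were the third highest of all members. The groups did not overlap, with control-3 just below Z1C2Z-5. Krtap14 and Krtap15 had log2 fold changes of 6.23 and 6.24 (edgeR adjusted p = 0.0303 and 0.0315). Krtap16-3 had 0.213, 1.05, 2.37 and 0.648 CPM in the controls and 35.4, 297, 255 and 4.38 CPM in the treated samples, and rose by 7.07 on the log2 scale (standard error 1.34, edgeR adjusted p = 0.0303). Its value lay among those of the Krtap19 genes rather than near Krtap16-1, the other gene of its family number. Krtap16-3 lies on chromosome 16 between Krtap19-9b and Krtap22-2, and Krtap16-1 lies on chromosome 11. No protein sequence was examined, so the high-sulfur class of Krtap16-3 rests on its family number alone and may be wrong. Counted as high-glycine-tyrosine, it brought that class to 15 of 15 called and the high-sulfur class to 12 of 15, a choice made after the data were seen.

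Of the 20 ultra-high-sulfur genes, 18 were tested and 17 were called, with a median log2 fold change of 4.52 and no overlap in 7. Krtap4 was the largest family, with 8 tested and 7 called. Krtap4-1, its most abundant gene, had 0.675, 3.11, 11.8 and 1.13 CPM in the controls and 61.7, 194, 229 and 12.0 CPM in the treated samples, and rose by 4.88 on the log2 scale (standard error 1.11, edgeR adjusted p = 0.037). Z1C2Z-5 barely cleared control-3. Krtap9-3 (5.18), Krtap5-5 (4.75), Krtap12-1 (4.46), Krtap10-10 (4.35) and Krtap17-1 (4.05) were called with edgeR adjusted p values of 0.0349, 0.0420, 0.0395, 0.0448 and 0.0459. Krtap5-4, named after its values were seen, rose by 6.72 where the other tested Krtap5 genes rose by 4.58 to 4.92, but it had 2, 0, 6 and 1 counts in the controls against 73, 469, 584 and 15 in the treated samples. Krtap5-1 had 1 count in control-3, 0 in the other controls and 10, 120, 114 and 0 counts in the treated samples, and was not tested.

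Of the 5 smallest log2 fold changes among tested members, 3 belonged to Krtap4 genes. Krtap4-8 and Krtap4-9 had log2 fold changes of 3.72 and 3.46 (edgeR adjusted p = 0.0411 and 0.0498). Krtap4-13 had 0, 0.139, 0.909 and 0.0282 CPM in the controls and 2.12, 2.36, 2.59 and 0.471 CPM in the treated samples, 2.75 apart on the log2 scale (standard error 0.96, edgeR adjusted p = 0.103). These 3 genes are neighbours, and Z1C2Z-2 exceeded Z1C2Z-1 in them by a factor of only 1.58, 1.25 and 1.11, against a median of 3.15 in their class. Krtap4-13 shares 81.3% of its 50-base words with other transcripts of the GENCODE annotation, most with Gm11554, so its reads are uncertain. The share was over 25% in 14 of the 56 members and 0 in 16, among them Krtap8-1, Krtap7-1, Krtap19-4, Krtap19-5 and Krtap22-2. Of the unclassified genes, Krtap28-13 was called (log2 fold change 4.61, edgeR adjusted p = 0.0441) and Krtap29-1 was not (3.46, 0.0751).

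The classes differed in how they were spread over the treated samples. From Z1C2Z-1 to Z1C2Z-2 the CPM of high-glycine-tyrosine genes differed by a median factor of 8.38 (4.51 to 11.3, 14 genes), that of high-sulfur genes by 3.79 (2.05 to 8.39, 16 genes) and that of ultra-high-sulfur genes by 3.15 (1.11 to 5.94, 18 genes). Z1C2Z-2 was above Z1C2Z-4 in 11 of 14 high-glycine-tyrosine genes, in 6 of 16 high-sulfur genes and in 1 of 18 ultra-high-sulfur genes, which was Krtap17-1. Z1C2Z-5 lay a median 1.76 times above control-3 in the high-glycine-tyrosine genes, whereas the ratio was 0.946 in the high-sulfur and 0.974 in the ultra-high-sulfur genes. Control-3 equalled or exceeded Z1C2Z-5 in 2 of 14, 12 of 16 and 11 of 18 genes of the 3 classes. These are ratios between single libraries, with no replicate behind them.

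**Figure D3:**
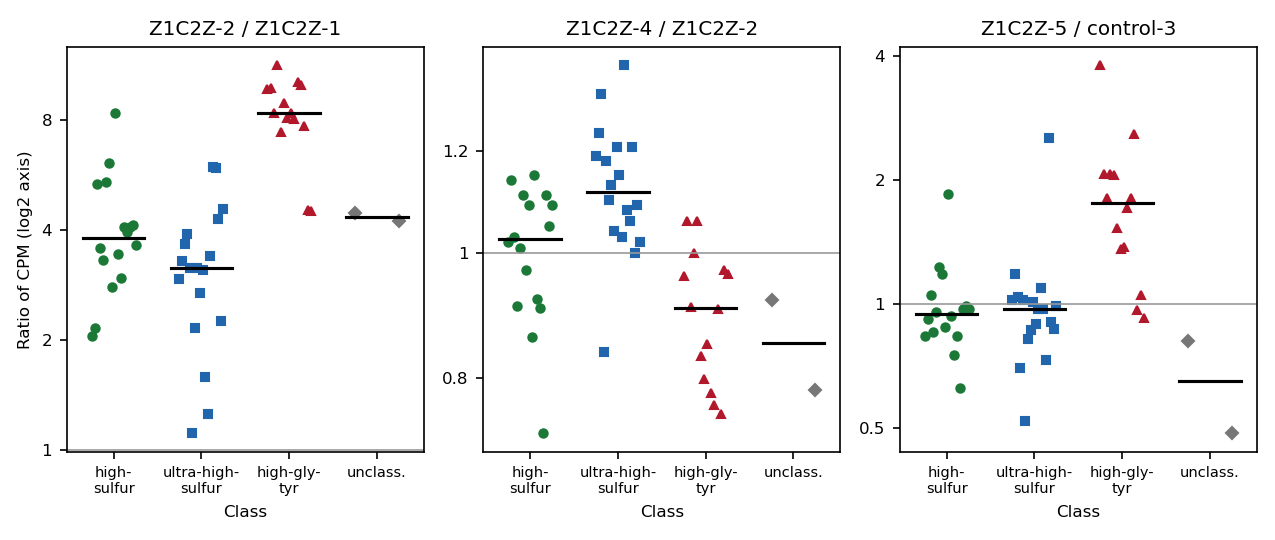
Ratio of CPM (log2 axis) between 2 samples for each tested Krtap gene by class, from left to right Z1C2Z-2 over Z1C2Z-1, Z1C2Z-4 over Z1C2Z-2 and Z1C2Z-5 over control-3. Points are genes, black bars are class medians and the grey line marks equal levels. In the left panel the high-glycine-tyrosine median is 8.38, against 3.79 and 3.15 in the sulfur-rich classes.

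High-glycine-tyrosine genes made up 38.2% of the Krtap counts in control-1 (95% Wilson interval 34.8 to 41.7), 27.9% in control-2 (26.3 to 29.6), 26.4% in control-3 (25.7 to 27.3) and 40.5% in control-5 (38.1 to 42.9). They made up 37.6% in Z1C2Z-1 (37.2 to 38.0), 49.7% in Z1C2Z-2 (49.5 to 49.8), 46.1% in Z1C2Z-4 (45.9 to 46.3) and 30.4% in Z1C2Z-5 (29.5 to 31.2). The intervals cover counting error only. Z1C2Z-2 and Z1C2Z-4 had the highest shares, but the groups overlapped, since Z1C2Z-1 and Z1C2Z-5 lay within the range of the controls. The shares did not follow the amount of Krtap RNA, since control-5 and control-1, which had the least, came next.

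The position of the genes followed the same division. By RefSeq's gene order, 23 members lie on chromosome 11, 24 on chromosome 16, 5 on chromosome 7, 3 on chromosome 10 and 1, Krtap28-13, on chromosome 1. The 20 tested members of chromosome 11, all sulfur-rich or unclassified, had a median log2 fold change of 4.36 (2.75 to 5.65). The 22 tested members of chromosome 16 had a median of 6.57 (3.92 to 8.08). Within chromosome 16, the 15 tested genes from Krtap14 to Krtap6-2 lay between 6.23 and 8.08. Krtap14, Krtap15 and Krtap16-3, counted as high-sulfur by family number, sit in that stretch. The 7 tested genes outside it, Krtap8-1, Krtap7-1 and 5 high-sulfur genes, lay between 3.92 and 5.29. The stretch was marked out after the values were seen, so no test was made.

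**Figure D4:**
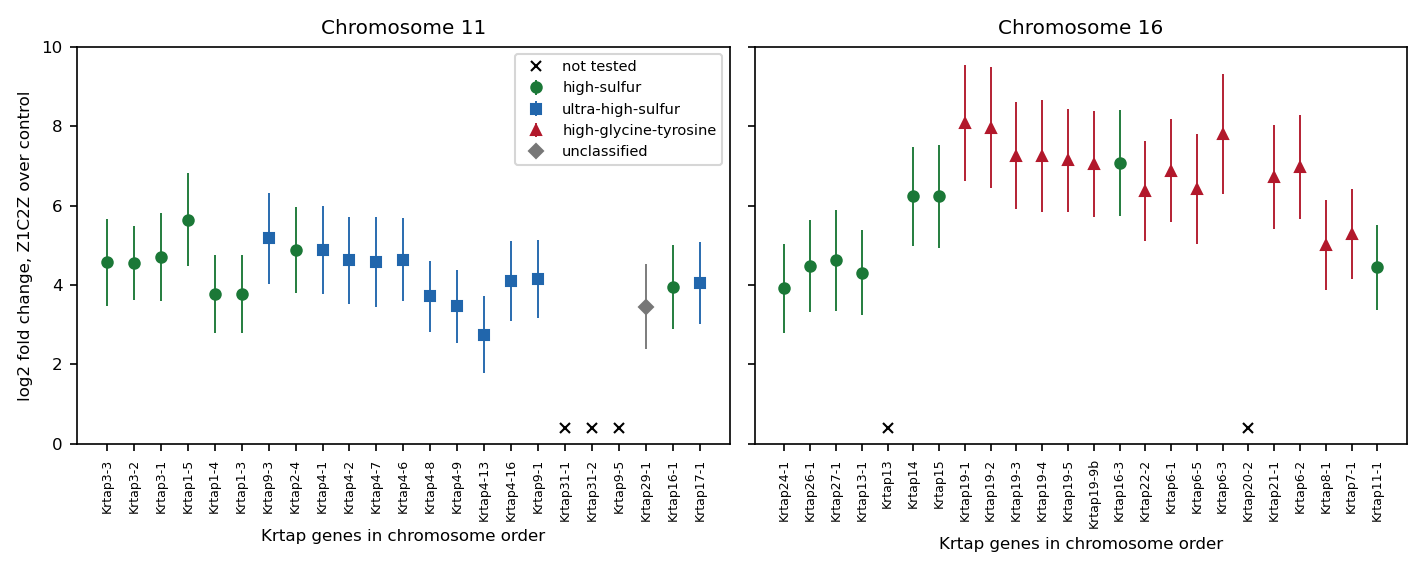
edgeR log2 fold change with 1 standard error of the Krtap genes on chromosomes 11 and 16 in chromosome order, 1 symbol per gene, coloured by class. Crosses at the bottom mark genes that were not tested and carry no value. On chromosome 16 the genes from Krtap14 to Krtap6-2 (6.23 to 8.08) form a raised block between flanking genes at 3.92 to 5.29.

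Krtap31-1, Krtap31-2 and Krtap9-5, adjacent members on chromosome 11, differed from all tested members in how Z1C2Z-4 compared with Z1C2Z-2, and were named after their values were seen. Krtap31-1 had 0, 6, 6 and 1 counts in the controls and 118, 276, 838 and 5 in the treated samples. Krtap31-2 had 1, 4, 2 and 0 counts in the controls and 149, 258, 907 and 1 in the treated samples. Krtap9-5 had 1, 1, 3 and 0 counts in the controls and 91, 112, 454 and 9 in the treated samples. Z1C2Z-4 was the highest sample in each, and Z1C2Z-5 was the lowest treated sample, within the range of the controls in Krtap31-1 and Krtap31-2 and 3.02 times control-3 in Krtap9-5, on 9 counts. The CPM ratio of Z1C2Z-4 to Z1C2Z-2 was 2.94, 3.41 and 3.93, while it lay between 0.724 and 1.40 in the 50 tested members. All 3 fell short of the filter on low counts, and without it their edgeR log2 fold changes were 6.34, 7.26 and 6.74 (adjusted p = 0.0317, 0.0313 and 0.027).

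**Figure D5:**
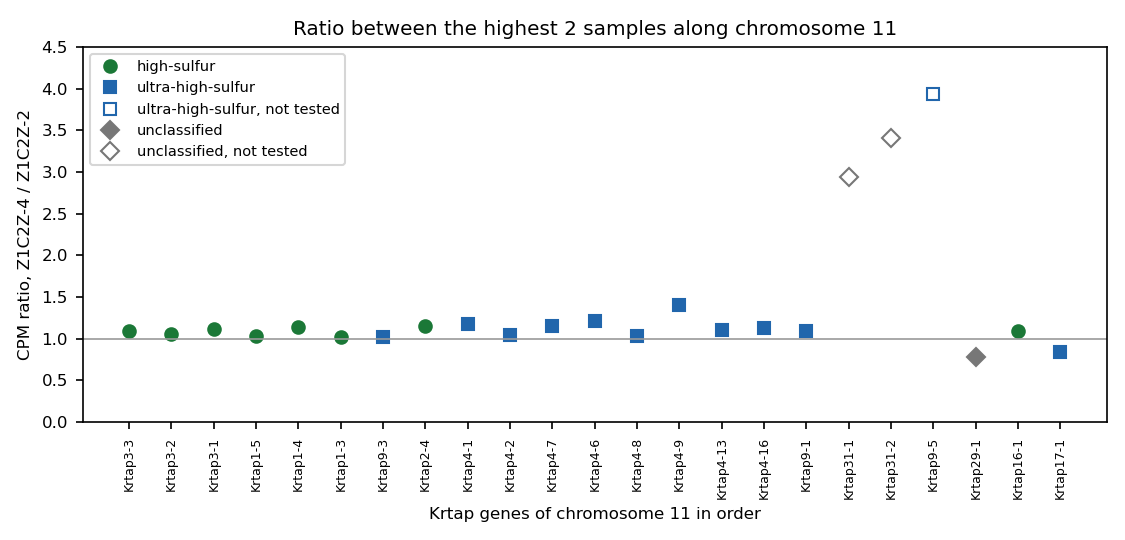
CPM in Z1C2Z-4 divided by CPM in Z1C2Z-2 for the 23 Krtap genes of chromosome 11 in chromosome order, open symbols marking genes that were not tested. Krtap31-1, Krtap31-2 and Krtap9-5 reach 2.94 to 3.93, and every other gene of the chromosome lies at or below 1.40.

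The sequences before the starts of these 3 genes are shown because they share a run of 23 bases, which is in capitals together with TATAAA. They come from chr11:99907820-99907919 (Krtap31-1), chr11:99936191-99936290 (Krtap31-2) and chr11:99948324-99948423 (Krtap9-5), all on the plus strand of GRCm38.p6.
Krtap31-1: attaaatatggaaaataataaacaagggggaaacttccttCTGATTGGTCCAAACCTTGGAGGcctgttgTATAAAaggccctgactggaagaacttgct
Krtap31-2: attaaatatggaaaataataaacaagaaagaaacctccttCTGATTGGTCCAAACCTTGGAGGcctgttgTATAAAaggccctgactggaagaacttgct
Krtap9-5: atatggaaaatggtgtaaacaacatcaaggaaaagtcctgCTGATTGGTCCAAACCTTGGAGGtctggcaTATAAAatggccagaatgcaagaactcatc
The run begins 60 bases before the start in each. On either strand of the 250 bases before the start it occurred in 4 of 32851 promoters, these 3 and that of Gm11565, which lies between Krtap31-1 and Krtap31-2. Krtap31-1 and Krtap31-2 have the same base at 96 of 100 positions before the start, and Krtap31-1 and Krtap9-5 at 66. Gm11565 had 2, 1, 10 and 1 counts in the controls and 324, 946, 1940 and 32 in the treated samples, with a CPM ratio of Z1C2Z-4 to Z1C2Z-2 of 1.99. Krtap31-1 and Krtap31-2 share 39.5% and 41.5% of their 50-base words with other transcripts, most with each other, and Krtap9-5 shares 0%.

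The hair keratins, the filament partners of the Krtap proteins, were higher in the same samples, with a ratio of mean sums of 13.7 where that of the Krtap genes was 41.2. Of 16 hair keratin genes, 14 were called higher in edgeR, 9 of 9 of type I and 5 of 7 of type II, with a median log2 fold change of 3.98. Krt34, a type I hair keratin, had 1.24, 5.86, 19.1 and 2.59 CPM in the controls and 94.1, 350, 361 and 20.7 CPM in the treated samples (log2 fold change 4.83, edgeR adjusted p = 0.0362). Krt33a (4.36), Krt83 (4.76) and Krt87 (3.99) rose by similar amounts, while Krt35 and Krt85, the keratins that appear first as the shaft forms, rose by 2.47 and 2.70 (edgeR adjusted p = 0.0306 and 0.0319). The Krtap counts per hair keratin count were 0.415, 0.445, 0.747 and 0.555 in the controls and 1.15, 2.05, 2.09 and 0.688 in the treated samples. Z1C2Z-1, Z1C2Z-2 and Z1C2Z-4 lay above all controls and Z1C2Z-5 lay below control-3.

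Genes that act upstream in the hair follicle differed by smaller factors. Of 14 regulators of the hair shaft, 9 were called higher in edgeR and 11 had groups that did not overlap. Hoxc13, a homeobox factor that regulates hair keratin and Krtap genes, had 12.3, 16.1, 23.8 and 8.53 CPM in the controls and 55.1, 91.0, 82.2 and 33.7 CPM in the treated samples. Every treated sample was above every control, including Z1C2Z-5, in which the summed Krtap level was no higher than in control-3. The log2 fold changes were 2.11 for Hoxc13, 2.27 for Foxn1, the forkhead factor whose loss makes mice nude, 2.09 for Msx2 and 1.74 for Lef1, a Wnt effector of the follicle matrix (edgeR adjusted p = 0.0299, 0.0315, 0.0299 and 0.0299). Dlx4 (1.92), Dlx3 (1.55), Foxq1 (1.44), Msx1 (1.22) and Bmp4 (1.01) were also called. Of 9 genes of the inner root sheath, which lines the growing hair, 6 were called, and the median of the 9 was 2.62. Krt71 (2.48) and Krt25 (2.45) were among the 6, while Tchh (2.62) missed the threshold.

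Marker genes of other cells in the wound were measured in the same fit. Of 12 epidermal keratinocyte genes, 1 was called higher, Krt2 (3.26), and the median was 0.31, with Krt14 at −0.19, Krt1 at 0.27 and Krt10 at 0.54. Krt2 was sparse, with means of 0.272 CPM in the controls and 2.62 CPM in the treated samples, where Krt1 had 3680 and 4430 CPM. All 16 skeletal muscle genes had log2 fold changes below 0 (median −0.57). In edgeR 0 of them were called and 9 had an unadjusted p under 0.05, while DESeq2 called 0. Their sum was 8190, 5280, 4330 and 5780 CPM in the controls and 4210, 3700, 3950 and 3820 CPM in the treated samples, with no overlap. Acta1, the skeletal actin, stood at −0.86 (edgeR adjusted p = 0.0303, under the fold threshold). With the muscle level as a covariate, edgeR called 0 Krtap genes, with 35 of 50 at an unadjusted p under 0.05 and a median log2 fold change of 3.29. Of all 15147 genes, that fit called 1 higher and 3 lower, and 3683 were at an unadjusted p under 0.05. Since the muscle level was lower in the treated group, the fit cannot separate it cleanly from the treatment. Of 8 dermal fibroblast genes, Col1a1 at −0.57 among them, edgeR called 0 (median −0.51), with 7 at an unadjusted p under 0.05 and 0 called by DESeq2. Of the 8 tested leukocyte genes of 10 listed, S100a9 at −1.36 among them, it called 0 (median −0.54), with 3 at an unadjusted p under 0.05 and 2 called by DESeq2. Over all 15147 tested genes, 4248 were at an unadjusted p under 0.05 in the edgeR fit without a covariate. The leukocyte genes were not far from that share. How far the mix of tissues in each sample contributed to the Krtap levels was not tested.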

How the data were processed

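For 8 samples the authors deposited read counts, not normalised, in 1 table of 18540 genes with symbols and Entrez identifiers. Ribosomal RNA was removed and second-strand cDNA carried dUTP. The aligner, counting program, genome build and strand setting are not given in the sources used here, so reads of near-identical or antisense genes cannot be told apart. Samples were grouped by title, and 0 columns were left unused. Total counts were between 28856790 and 38974888 per sample, and no pair of libraries agreed within sampling noise.

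The tests used edgeR 4.0.16 in R 4.3.3 (filterByExpr, TMM, quasi-likelihood, Benjamini-Hochberg over 15147 genes, no covariate). A call needed an adjusted p below 0.05 and a log2 fold change beyond 1 in either direction. The steps were tested on simulated data. Standard errors were taken from its F statistic. Log2 CPM (prior count 2) of each gene also went into an exact permutation test, two-sided, over 70 arrangements. Classes and families were summed and described without a test. Shared 50-base words came from GENCODE vM21 transcripts, exon lengths too, and promoters and gene order from RefSeq. Named were the most abundant tested member of each family, the 5 largest and 5 smallest log2 fold changes, the 3 smallest adjusted p, every called regulator and up to 3 abundant genes of each other list, and genes outside this rule are said to have been named after their values were seen, as were Krtap5-3, Krtap5-4, Krtap20-2, Krtap13, Krtap5-1 and Krt2. The members and lists were chosen with earlier results of these data known. Alternatives were DESeq2 1.42.0, other size factors and filters, the sample number as a block, a muscle covariate and each sample left out.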

Additional observations from a re-analysis of the deposited data

Results flagged for a closer look

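In all, 92 groups of 4 samples were examined, on the log2 CPM scale except for the untransformed ratio of high-glycine-tyrosine to sulfur-rich counts. Of these, 3 held a sample whose gap to the nearest of the others, as a share of the range of the group, was above Dixon's critical value. Chance flags about 1 in 20 independent groups. These groups are the same 8 samples seen through genes that share a sample order, so 3 of 92 cannot be set against that rate. In Krtap15, control-3 stood above the other controls (log2 CPM 3.96 against 1.07 to 1.41), and the gap took 0.88 of the range. In Krtap4-13, Z1C2Z-5 stood below the other treated samples (log2 CPM -0.925 against 1.12 to 1.40), with a gap of 0.88 of the range. In Krtap6-3, control-1 stood below the other controls (log2 CPM -3.23 against -2.17 to -2.01), with a gap of 0.869 of the range, which rests on 1 count in control-1.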

How the results depend on the processing

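The direction was kept in 526 of 526 repeats for single named Krtap genes, and the lowest log2 fold change of any tested member under any setting was 1.16. The number of Krtap genes called was 44 with RLE size factors, 47 with library totals, 48 with DESeq2 and 50 without a filter. At least 10 counts in every sample left 23 members to test, of which 23 were called (8 high-sulfur, 5 ultra-high-sulfur and 9 high-glycine-tyrosine), since fewer genes pass. With the skeletal muscle covariate, edgeR called 0 Krtap genes in each class, 0 hair keratins and, over all genes, 1 higher and 3 lower. At an unadjusted p under 0.05 were 35 of 50 Krtap genes, 13 of 16 hair keratins and 3683 of all 15147 genes. Without both Z1C2Z-2 and Z1C2Z-4, a choice made after the data were seen, edgeR called 0 Krtap genes, 0 hair keratins and 0 genes of all. There 42 of 50 members and 1980 of all 15338 genes were at an unadjusted p under 0.05. The median log2 fold change of the members was 2.92. By an adjusted p alone 648 genes were higher and by an unadjusted p with the fold 496, in place of 326. Leaving out each sample in turn gave 0 to 53 Krtap genes, 0 to 16 high-sulfur, 0 to 19 ultra-high-sulfur, 0 to 14 high-glycine-tyrosine and 0 to 16 hair keratins. Over all genes, 0 to 463 were called higher. The fits with 0 Krtap genes were those with control-2 or control-5 left out, or any treated sample other than Z1C2Z-5. In those fits no more than 8 genes of all were called higher, while 76 were called lower without control-2. Why these samples decide the calls was not tested. The numbers 1, 2 and 5 occur in both groups. Same-numbered samples correlated at -0.101, -0.0623 and 0.323 in their deviations from the group means, and differently numbered samples at -0.409 to 0.387. So few values cannot tell whether same-numbered samples share a mouse or a batch. With the replicate block, 47 Krtap genes were called (16 high-sulfur, 18 ultra-high-sulfur, 11 high-glycine-tyrosine), 42 of them among the 45. The class medians were 5.17, 5.20 and 5.96 in place of 4.57, 4.52 and 7.01. In that fit control-3 and Z1C2Z-4, whose numbers have no partner in the other group, add nothing to the group difference. Members with under 10 counts in the controls are measured with large counting error.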
